A study of Mus musculus with 6 samples.

Results

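The myogenic transcription factors are the DNA-binding proteins that set up and maintain the skeletal muscle programme. The group described here holds 9 genes chosen by name (Pax7, Six4, Myf5, Myod1, Myog, Myf6, Mef2a, Mef2c and Mef2d) of 33641 gene symbols measured. All transcript rows with these symbols were taken, 58 of 105129, of which 48 were above 0 TPM in at least 1 library. TPM is a transcript's abundance corrected for its length, scaled so that each library sums to 1000000. The samples were quadriceps muscle of male mice at 4 months of age (about 16 weeks), littermates from heterozygous parents, harvested about 4 hours after lights on. In 3 libraries, called homozygous, both copies of the glucocorticoid receptor gene Nr3c1 carried a mouse copy of the human variant rs6190 (rs6190 allele +/+). In the other 3, called WT, both copies carried the reference allele (ref allele +/+). The allele is in the germ line, so every cell type of the muscle carried it, and the sources used here do not say how it was made.

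Myogenesis runs through a series of these factors. Pax7 marks satellite cells, the resident stem cells of muscle, and Six4 acts upstream of the myogenic regulatory factors. Those factors, Myf5, Myod1, Myog and Myf6, are basic helix-loop-helix proteins that bind E-boxes as dimers with E-proteins. Myf5 and Myod1 commit cells to the lineage, Myog drives differentiation, and Myf6 (also called MRF4) is the member kept highest in adult fibres. The MEF2 proteins are MADS-box factors that act with them and are held back by class IIa histone deacetylases. In adult muscle Myod1 is known to be favoured in fast fibres and Myog in slow fibres.

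The libraries held an estimated 14.6 to 19.98 M fragments each (M for mega), worked out from the step size of low TPM values. They were skeletal muscle by their markers, with Ckm, the muscle creatine kinase, between 17248 and 32549 TPM. WT replicate 3 stood apart. Its correlations with the other libraries across genes were 0.951 to 0.965, against 0.972 to 0.987 among the rest (genes are not independent replicates). Its 12 fast-fibre genes made up 23.2% of TPM, against 9.67% to 13.1% elsewhere. Nr3c1 itself was at 20.01, 19.7 and 19.5 TPM in the homozygous libraries against 11.5, 14.8 and 8.07 TPM, and TPM cannot show which allele was transcribed. The labels do not say whether each library is a separate mouse, so the p-values measure the spread between these libraries.

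The 9 genes spanned a wide range of levels, in TPM, over all 6 libraries. Mef2c was the highest, between 40.4 and 113 TPM with a median of 97.7. Myf6 followed at 63.7 to 80.3 TPM, a range that overlapped that of Mef2c. Mef2d lay below it at 38.5 to 62.1 TPM, apart from Myf6 in all libraries. Mef2a, at 12.04 to 27.3 TPM, overlapped Myod1, at 7.504 to 30.5 TPM. Myog and Six4 were low and overlapped, at 1.42 to 3.66 and 1.31 to 2.89 TPM. Myf5 and Pax7 were the lowest and also overlapped, at 0.355 to 0.907 and 0.328 to 0.657 TPM. In mature muscle Myf6 and the MEF2 genes are known as the abundant members. Myf5 and Myf6 lie next to each other on chromosome 10, 6718 nt apart on the same strand, yet the mean level of Myf6 was 122 times that of Myf5.

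**Figure D1:**
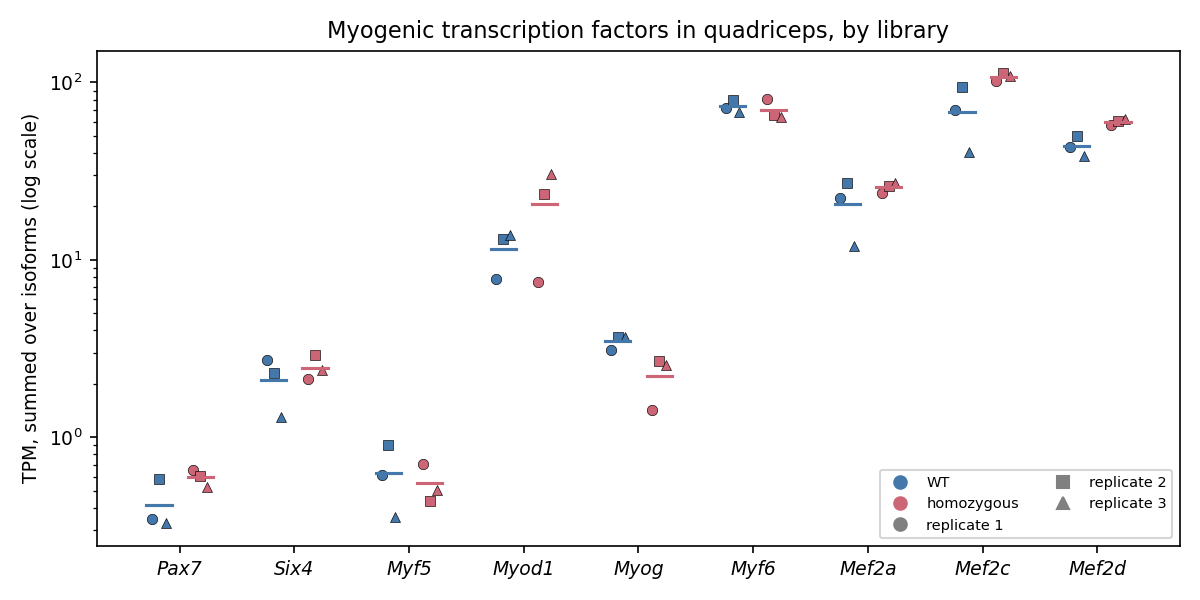
TPM of each gene, summed over its isoforms, on a log axis, with 1 point per library (blue, WT; red, homozygous; marker shape, replicate number) and a line at each group mean. The homozygous points lie above all WT points for Mef2c and Mef2d and below them for Myog. WT replicate 3 is the lowest library for Pax7, Six4, Myf5, Mef2a, Mef2c and Mef2d.

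The comparison of genotypes asked whether these factors differ in muscle with the rs6190-type allele. Differences are given on the log2(TPM + 1) scale as homozygous minus WT, tested with limma over the 11099 genes that reached 1 TPM in 3 libraries or more. Of the 9 genes, 7 passed this filter, and Pax7 and Myf5 were read from a fit without it. None of the 7 passed an adjusted p of 0.05 in limma, as was so for all genes (0.0%). At an unadjusted p under 0.05, Mef2c and Mef2d were higher and Myog was lower, against 23.7% of all genes higher and 0.55% lower. The groups did not overlap for the same 3 genes, against 34.7% of all genes with the homozygous libraries above and 0.73% with them below (35.5% in either direction). With quantile normalization 1 of the 7, Myog, was at an unadjusted p under 0.05, against 4.54% of all genes higher and 4.34% lower. The median log2 fold change was 0.38 over the 7 genes and 0.26 over all genes. Rescaling moved the latter to -0.01 with quantile normalization and -0.04 with median centring, so a difference near 0.26 is that of the typical gene. Being above WT is therefore common in this table, and being below it is rare.

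**Figure D2:**
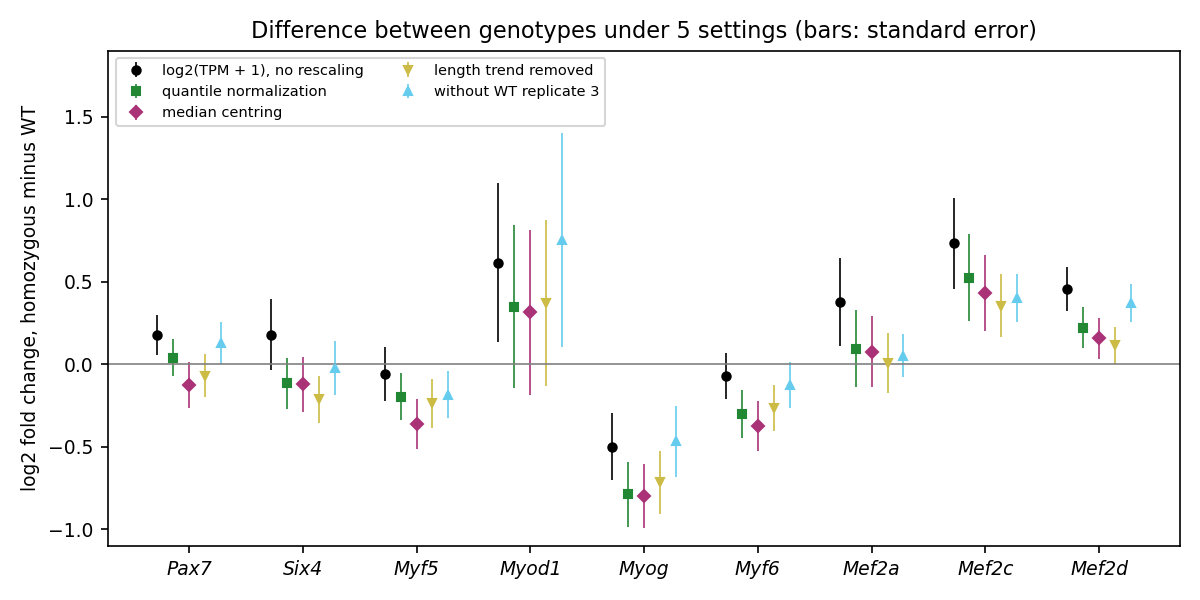
Log2 fold change of each gene, homozygous minus WT, with its standard error, without rescaling and under 4 alternatives (quantile normalization, median centring, removal of a transcript length trend, and WT replicate 3 left out). Myog, Myf5 and Myf6 lie below 0 in all 5 settings. Mef2a, Mef2c, Mef2d and Myod1 lie above 0 in all 5, while Pax7 and Six4 cross 0.

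Pax7 (ENSMUSG00000028736.13, GRCm38 chromosome 4, 139737062 to 139833528, minus strand) was at 0.657, 0.607 and 0.525 TPM in the homozygous libraries 1, 2 and 3. It was at 0.344, 0.580 and 0.328 TPM in the WT libraries. These levels rest on an estimated 42.8 to 68.8 fragments in the homozygous and 28.9 to 32.9 in the WT libraries. The groups overlapped only through WT replicate 2, where 0.327 TPM of the 0.580 came from a second isoform (Pax7-202), listed at 0 in the other 5 libraries. The limma fit gave a difference of 0.18 (SE 0.12; limma without a filter, adjusted p 0.508). It turned negative under median centring and once the length trend was removed, so no direction can be given. In whole muscle, a different number of satellite cells and a different amount of RNA per cell cannot be told apart.

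Other satellite cell markers were measured beside Pax7. Of 14 listed markers, 11 were tested and 0 passed the adjusted threshold in limma. At an unadjusted p under 0.05, 3 were higher and 0 lower, against 23.7% and 0.55% of all genes. Their median log2 fold change was 0.37, or 0.11 above that of all genes. Their summed level was 98.8 to 110.3 TPM in the homozygous and 80.4 to 82.1 TPM in the WT libraries. The groups did not overlap in this sum, but 34.7% of all single genes also had the homozygous libraries above. The largest term was the integrin subunit Itga7, which fibres also express, at 48.5 ± 5.99 against 35.9 ± 3.43 TPM (SD, n = 3 each). Cdh15, the M-cadherin of satellite cells, was 10.6 ± 2.22 against 6.86 ± 1.77 TPM, with overlap. Calcr, the calcitonin receptor of quiescent satellite cells, stayed between 0.0420 and 0.222 TPM, with overlap between groups.

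Six4 (ENSMUSG00000034460.9, chromosome 12, 73099609 to 73113456, minus strand) encodes a homeobox factor that activates myogenic genes. It was at 2.12, 2.89 and 2.40 TPM (homozygous 1 to 3) against 2.73, 2.30 and 1.31 TPM (WT 1 to 3), with overlapping groups. On the log2 scale the groups differed by 0.18 (SE 0.22; limma, adjusted p 0.586), and -0.02 without WT replicate 3. Eya3, a coactivator phosphatase that works with Six4, was 5.62 ± 0.438 against 3.10 ± 0.389 TPM. Of the 11 listed relatives of the members (Pax3, Mef2b and the Eya and Dach genes among them), 6 were tested. None of the 6 passed the adjusted threshold in limma. At an unadjusted p under 0.05, 2 of them, Eya3 included, were higher, against 23.7% of all genes. Their median was 0.26, equal to that of all genes within 0.01.

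Myf5 (ENSMUSG00000000435.1, chromosome 10, 107482908 to 107486134, minus strand) was at 0.703, 0.440 and 0.505 TPM (homozygous 1 to 3) against 0.616, 0.907 and 0.355 TPM (WT 1 to 3). These values rest on an estimated 11.0 to 25.9 fragments, and the 2 groups overlapped. Its log2 difference came to -0.06 (SE 0.16; limma without a filter, adjusted p 0.859), and a difference was not detectable at this depth. Without WT replicate 2 its sign turned, to 0.06.

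Myod1 (ENSMUSG00000009471.4, chromosome 7, 46376474 to 46379099, plus strand) varied most among the libraries, by 4.07 times between the lowest and the highest. It was at 7.504, 23.6 and 30.5 TPM in the homozygous libraries and at 7.80, 13.1 and 13.8 TPM in the WT libraries. Replicate 1 was the lowest of each group, and homozygous replicates 2 and 3 lay above all WT libraries. In limma the homozygous minus WT difference was 0.62 (SE 0.48; limma, adjusted p 0.415), within the spread between replicates. The group means came to 20.5 ± 11.8 and 11.6 ± 3.27 TPM (SD, n = 3 each), and the value stayed above 0 in all 13 alternatives, from 0.24 to 1.19.

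Myog (ENSMUSG00000026459.5, chromosome 1, 134289989 to 134292548, plus strand), the factor of terminal differentiation, was the tested member that lay lower in every homozygous library. It was at 1.42, 2.69 and 2.54 TPM (homozygous 1 to 3) against 3.10, 3.66 and 3.66 TPM (WT 1 to 3). The estimated fragments were 34.9, 50.8 and 48.8 against 69.8, 72.7 and 79.0. Homozygous replicate 1 was the lowest, and the WT libraries lay close together. The group means came to 2.22 ± 0.696 and 3.48 ± 0.322 TPM (SD, n = 3 each). The limma fit gave a difference of -0.50 (SE 0.20), or -0.76 relative to the median of all genes, and did not pass the threshold (limma, adjusted p 0.194). It stayed below 0 in all 13 alternatives, from -0.80 with median centring to -0.31 without homozygous replicate 1, with an adjusted p of 0.179 to 0.589. Without WT replicate 3 it was -0.47, so the direction does not rest on that library.

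The promoter of Myog is a textbook target of its own family through E-boxes. The 250 bases before its start are printed for that reason, from RefSeq on GRCm38.p6 (chr1:134289754-134290003, plus strand), with matches to the E-box letters CANNTG in capitals. RefSeq places that start at 134290004.
Myog promoter: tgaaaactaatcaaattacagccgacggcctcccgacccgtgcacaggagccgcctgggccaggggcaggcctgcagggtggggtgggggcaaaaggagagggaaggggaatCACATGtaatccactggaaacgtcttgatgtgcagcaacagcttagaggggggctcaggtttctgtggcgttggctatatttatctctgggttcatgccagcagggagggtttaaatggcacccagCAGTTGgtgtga
Counted from the start, the matches begin at positions -138 and -12. The same letters occur in 66.2% of 32851 RefSeq promoter windows of this length, searched on both strands, so their presence is common. The consensus MEF2 motif occurs in 2.92% of windows and the SRF (CArG) motif in 1.47%, and neither exact letter pattern is in this window. A search for exact letters misses sites that differ from the pattern by a base, so it cannot show that a promoter lacks a MEF2 or SRF site. RefSeq promoter windows were matched for 7 of the 9 genes. Among them, E-box letters were found for Myog and Mef2c.

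Myf6 (ENSMUSG00000035923.4, chromosome 10, 107492853 to 107494737, minus strand) was the steadiest of the 9, with 1.26 times between its lowest and highest library. It was at 80.3, 65.5 and 63.7 TPM (homozygous 1 to 3) against 71.9, 80.2 and 67.8 TPM (WT 1 to 3), with overlapping groups. On the log2 scale the groups differed by -0.07 (SE 0.14; limma, adjusted p 0.741), or -0.34 relative to all genes. Myf6 made up 65.5% to 89.3% of the summed TPM of the 4 myogenic regulatory factors. That share was 89.3%, 71.1% and 65.5% in the homozygous and 86.2%, 82.0% and 79.2% in the WT libraries, lowest in homozygous replicate 3, where Myod1 was highest.

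Ratios between genes of 1 library do not depend on how libraries are scaled, and 6 of them were formed after the values had been seen. With 3 against 3 libraries, the exact permutation test (two-sided) cannot go below p = 0.1. The ratio of Myod1 to Myog was 5.30, 8.76 and 12.01 in the homozygous and 2.51, 3.57 and 3.76 in the WT libraries. The homozygous libraries were all above the WT libraries (exact permutation p 0.1, adjusted over the 6 ratios 0.2). Slow-fibre genes are given beside this ratio because Myog is linked to slow and Myod1 to fast fibres. All 11 listed slow-fibre genes were detected in every library, and they summed to 1902, 9714 and 2241 TPM (homozygous 1 to 3) against 1738, 1123 and 245 TPM (WT 1 to 3). Myog was thus lower in the group with the higher slow-fibre sum, and the part of fibre type in the ratio was not tested.

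The ratio of Myf6 to Myog was 56.7, 24.4 and 25.1 against 23.2, 21.9 and 18.5, also without overlap. Its log2 difference was 0.63, and 0.23 without homozygous replicate 1. Myog, the divisor here and in the ratio of Myod1 to Myog, was already lower in every homozygous library. Neither ratio is therefore independent of the Myog result or of the other ratio. Myod1 to Myf6 overlapped, at 0.0934, 0.360 and 0.479 against 0.109, 0.163 and 0.203. Among MEF2 genes, Mef2c to Mef2a was 4.26, 4.34 and 4.01 in the homozygous and 3.14, 3.45 and 3.36 in the WT libraries. Both groups were tight, at 4.20 ± 0.170 and 3.32 ± 0.158 (SD, n = 3 each), and did not overlap (exact permutation p 0.1, adjusted 0.2). WT replicate 3 did not stand apart in this ratio. Mef2c to Mef2d and Mef2d to Mef2a overlapped between groups.

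**Figure D3:**
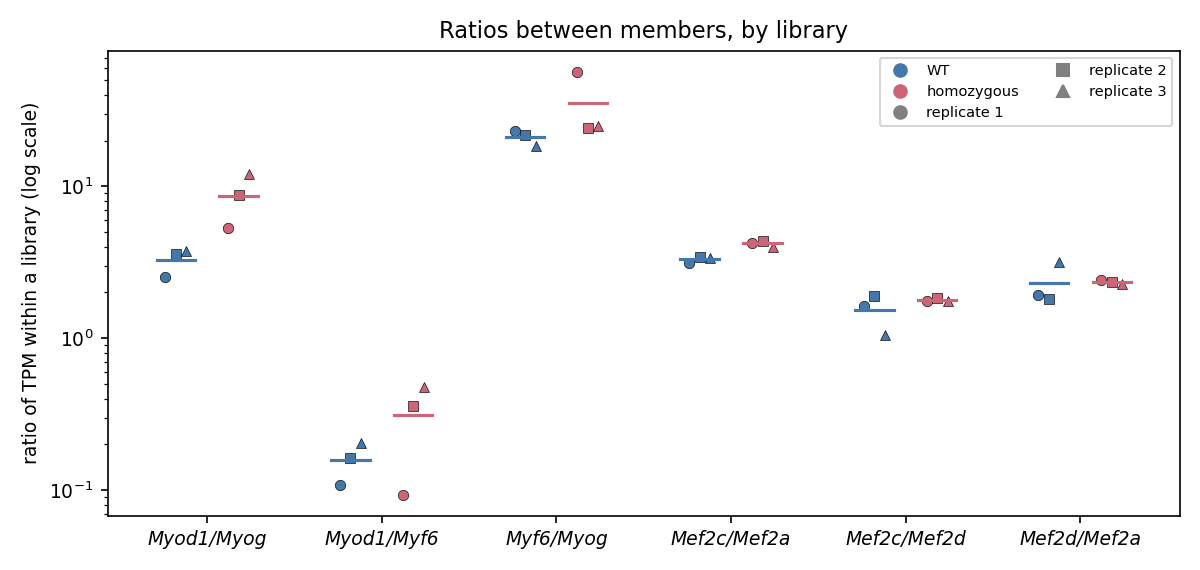
Ratio of TPM between 2 genes within each library, on a log axis, with 1 point per library (blue, WT; red, homozygous; shape, replicate) and a line at each mean. The homozygous points lie above the WT points for Myod1/Myog, Myf6/Myog and Mef2c/Mef2a, and the other 3 ratios overlap.

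Mef2c (ENSMUSG00000005583.16, chromosome 13, 83504034 to 83667080, plus strand), the MEF2 gene needed for myofibre integrity, had the largest difference in TPM. It was at 101, 113 and 109 TPM (homozygous 1 to 3) against 70.1, 94.05 and 40.4 TPM (WT 1 to 3). The homozygous libraries lay close together, and the WT libraries were spread and all lower. The group means came to 108 ± 5.77 and 68.2 ± 26.9 TPM (SD, n = 3 each). Its log2 difference came to 0.73 (SE 0.27), or 0.47 beyond the all-gene median (limma, adjusted p 0.181). Without WT replicate 3 it was 0.40, and it stayed above 0 in all 13 alternatives.

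Mef2d (ENSMUSG00000001419.17, chromosome 3, 88142372 to 88172086, plus strand) was at 57.7, 60.9 and 62.1 TPM (homozygous 1 to 3) against 43.2, 49.7 and 38.5 TPM (WT 1 to 3). The groups did not overlap, and the group means came to 60.2 ± 2.28 and 43.8 ± 5.62 TPM (SD, n = 3 each). In limma the homozygous minus WT difference was 0.46 (SE 0.13), or 0.19 above all genes, with the smallest adjusted p of the members (limma, 0.168). With array weights, which let limma give less weight to outlying libraries, it passed the threshold (adjusted p 0.043), as did 810 genes in all. With the length trend removed the log2 fold change was 0.12.

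Mef2a (ENSMUSG00000030557.17, chromosome 7, 67231163 to 67372858, minus strand) was at 23.8, 26.0 and 27.2 TPM (homozygous 1 to 3) against 22.3, 27.3 and 12.04 TPM (WT 1 to 3). The groups overlapped, and WT replicate 3 was low by itself. The limma fit gave a difference of 0.38 (SE 0.27; limma, adjusted p 0.369), and 0.05 without WT replicate 3.

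The MEF2 genes make several proteins by alternative splicing. Behind the shared MADS-box and MEF2 domains, each gene carries 1 of a pair of alternative exons called α. A short β exon adds a few acidic residues, and Mef2c has a γ segment, a repressive stretch at the start of its last coding exon. Here the α exons were sorted by sequence: class I is the exon that shares most bases with the α exon of the leading Mef2c isoform, Mef2c-201, and class II is the other. Those of Mef2c and Mef2d are printed because the isoform results turn on them, from GENCODE M21 transcripts on GRCm38, with capitals for bases not matched in the other exon of the same gene.
Mef2c class I, chr13:83625470-83625607, plus strand: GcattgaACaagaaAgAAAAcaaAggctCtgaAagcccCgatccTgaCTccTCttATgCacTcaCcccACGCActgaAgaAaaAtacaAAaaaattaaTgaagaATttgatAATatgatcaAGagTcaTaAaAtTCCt
Mef2c class II, chr13:83625265-83625408, plus strand: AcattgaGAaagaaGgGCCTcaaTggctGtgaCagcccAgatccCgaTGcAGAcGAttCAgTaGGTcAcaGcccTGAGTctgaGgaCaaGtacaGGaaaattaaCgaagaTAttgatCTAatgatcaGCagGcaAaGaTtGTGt
Mef2d class I, chr3:88158221-88158355, plus strand: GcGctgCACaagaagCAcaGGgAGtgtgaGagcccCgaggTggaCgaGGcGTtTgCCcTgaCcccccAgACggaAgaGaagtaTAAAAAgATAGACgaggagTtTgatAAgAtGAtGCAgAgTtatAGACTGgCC
Mef2d class II, chr3:88158034-88158171, plus strand: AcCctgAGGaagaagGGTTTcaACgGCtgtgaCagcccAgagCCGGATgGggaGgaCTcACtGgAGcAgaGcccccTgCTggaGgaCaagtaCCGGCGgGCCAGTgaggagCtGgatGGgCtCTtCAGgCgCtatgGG
All 4 are coding exons of whole codons, 135 to 144 nt long. The exons of a pair shared 63.2% of bases in Mef2c and 53.6% in Mef2d. The class I exons of Mef2c and Mef2d shared 65.2% of bases, and their class II exons 63.9%.

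The β exons and the γ segment are printed in capitals between 15 bases of the neighbouring exons.
Mef2a β, chr7:67244521-67244544, minus strand: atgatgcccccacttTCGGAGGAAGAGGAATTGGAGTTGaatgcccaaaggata
Mef2c β, chr13:83654598-83654621, plus strand: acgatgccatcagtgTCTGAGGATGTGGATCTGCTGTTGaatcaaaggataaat
Mef2d β, chr3:88161781-88161801, plus strand: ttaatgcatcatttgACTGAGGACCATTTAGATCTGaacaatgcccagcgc
Mef2c γ, chr13:83662307-83662402, plus strand: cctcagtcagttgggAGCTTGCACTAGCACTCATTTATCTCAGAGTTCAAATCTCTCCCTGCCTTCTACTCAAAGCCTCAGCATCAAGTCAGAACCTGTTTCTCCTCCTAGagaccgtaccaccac
The β exons hold 8, 8 and 7 codons and the γ segment 32.

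The 3 MEF2 genes did not use the same α exon in this muscle. Mef2c ran mainly on class I, with 75.8 ± 4.62 TPM against 20.7 ± 2.07 TPM of class II in the homozygous libraries. In WT these were 46.2 ± 24.4 and 19.6 ± 1.43 TPM, but nearly equal in WT replicate 3, at 21.2 and 18.99 TPM. Mef2a ran mainly on class II, with 21.2 ± 1.93 TPM against 3.15 ± 0.243 TPM of class I in the homozygous libraries. In WT these were 18.3 ± 6.43 and 1.20 ± 1.05 TPM. Mef2d also ran mainly on class II, at 46.6 ± 0.807 TPM, with 11.6 ± 1.33 TPM of class I in the homozygous libraries. In WT these were 35.9 ± 0.976 and 5.47 ± 3.09 TPM (SD, n = 3 each). The β exon was in 84.7% to 98.6% of Mef2a, 16.4% to 47.1% of Mef2c and 9.74% to 18.04% of Mef2d over the 6 libraries.

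Isoform rows were tested with limma over 21165 isoforms, of which 9 passed (0.0425%). Of the 17 member isoforms tested, 0 passed, and 5 were higher at an unadjusted p under 0.05, against 14.2% of all isoforms. The homozygous libraries were above the WT libraries in 5 of the 17, against 25.6% of all isoforms, and below in 1, against 2.11%. Mef2c accounted for 4 of those 5 (Mef2c-202, Mef2c-218, Mef2c-219 and Mef2c-230). Mef2c-219 and Mef2c-230 reached 1 TPM only in the homozygous libraries and passed the filter through them alone. Their place above WT was thus fixed by the filter and adds no support to these counts. How reads are split between isoforms depends on the quantifier, and that error is not in these tests.

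Mef2c-201 (6217 nt, class I, with γ) was the leading Mef2c isoform, at 52.9, 61.9 and 62.1 TPM (homozygous 1 to 3) against 41.4, 64.8 and 20.4 TPM (WT 1 to 3). Its log2 difference was 0.61, and 0.18 without WT replicate 3. Mef2c-218 (2589 nt, class I, without γ) was at 16.9, 16.7 and 15.5 TPM against 5.39, 5.01 and 0.789 TPM. Every homozygous library was above every WT library for Mef2c-218, with a log2 difference of 2.08 (SE 0.49; limma, adjusted p 0.252), or 1.49 without WT replicate 3. Mef2c-202, with the class I exon and part of class II, was at 2.19, 6.22 and 3.90 TPM against 1.15, 1.02e-07 and 1.16e-07 TPM. Mef2c-230, annotated as incomplete at its 5′ end (1011 nt), was at 4.12, 1.87 and 3.89 TPM (homozygous 1 to 3). In WT it was 0.161 TPM in the first library and listed at 0 in the remaining WT libraries. Its log2 fold change was 1.98 (SE 0.29), with the smallest adjusted p among member isoforms (limma, 0.131). Mef2c-230 reached 1 TPM only in the homozygous libraries and so passed the filter through that group alone. Its test therefore gives no separate support for a difference. Mef2c-212 behaved otherwise, at 20.5, 22.7 and 17.2 TPM against 18.5, 20.9 and 18.99 TPM, a log2 difference of 0.04 (SE 0.15; limma, adjusted p 0.899). This isoform has the class II exon and β, lacks γ, and starts 69573 nt downstream of Mef2c-218.

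Transcripts of the 2 Mef2c starts were then summed. Those starting within 1000 nt of the upstream site summed to 73.3, 85.8 and 83.8 TPM (homozygous 1 to 3) against 48.4, 70.4 and 21.2 TPM (WT 1 to 3). Those from the downstream site summed to 20.8, 22.8 and 17.2 TPM against 18.5, 20.9 and 18.99 TPM. The upstream share was 79.97% ± 2.68 against 67.4% ± 12.9 (SD, n = 3 each), without overlap, and 1 library, WT replicate 3 at 52.7%, made much of the difference. Without it the difference between means went from 12.6 to 5.23 percentage points. Mef2c-212 makes up most of the downstream sum and also most of the class II and β sums of Mef2c. The start, α and β shares of Mef2c are therefore not independent results. The promoters of both starts are printed so that they can be compared, from RefSeq on GRCm38.p6, with E-box letters in capitals.
Mef2c upstream promoter, chr13:83503784-83504033, plus strand: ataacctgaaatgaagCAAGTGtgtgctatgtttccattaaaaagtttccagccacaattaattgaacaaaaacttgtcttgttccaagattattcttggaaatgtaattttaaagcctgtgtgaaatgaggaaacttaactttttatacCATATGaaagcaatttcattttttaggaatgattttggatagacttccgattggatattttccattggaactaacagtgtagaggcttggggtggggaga
Mef2c downstream promoter, chr13:83573357-83573606, plus strand: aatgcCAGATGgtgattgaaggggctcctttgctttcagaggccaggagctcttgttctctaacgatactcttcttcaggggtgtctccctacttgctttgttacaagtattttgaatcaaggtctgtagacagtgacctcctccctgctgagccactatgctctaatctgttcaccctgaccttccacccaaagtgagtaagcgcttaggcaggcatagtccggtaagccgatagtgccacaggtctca
The upstream window holds 2 E-box matches, beginning at positions -234 and -100 from the start, and the downstream window 1, at position -245.

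Mef2d-201 (5401 nt, class II) was at 26.6, 28.7 and 25.9 TPM (homozygous 1 to 3) against 22.9, 18.6 and 27.5 TPM (WT 1 to 3), with overlap. Mef2d-202, the class I isoform, was at 10.02, 12.3 and 12.3 TPM against 6.13, 8.18 and 2.09 TPM, without overlap. The log2 fold change of Mef2d-202 was 1.09 (SE 0.40; limma, adjusted p 0.295), and 0.63 without WT replicate 3. Mef2d-203, with class II and β, was at 9.09, 7.25 and 10.7 TPM against 6.44, 8.14 and 3.62 TPM, and Mef2d-204, also class II, at 9.92, 10.9 and 10.6 TPM against 6.38, 10.2 and 3.95 TPM. The non-coding Mef2d-207 was under 2 TPM throughout. Mef2a-208 (class II, with β) was at 19.2, 20.996 and 23.01 TPM against 19.6, 24.0 and 11.2 TPM. Mef2a-203 and Mef2a-201, the class I isoforms, lay between 0 and 2.90 TPM, and both were listed at 0 in WT replicate 3.

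**Figure D4:**
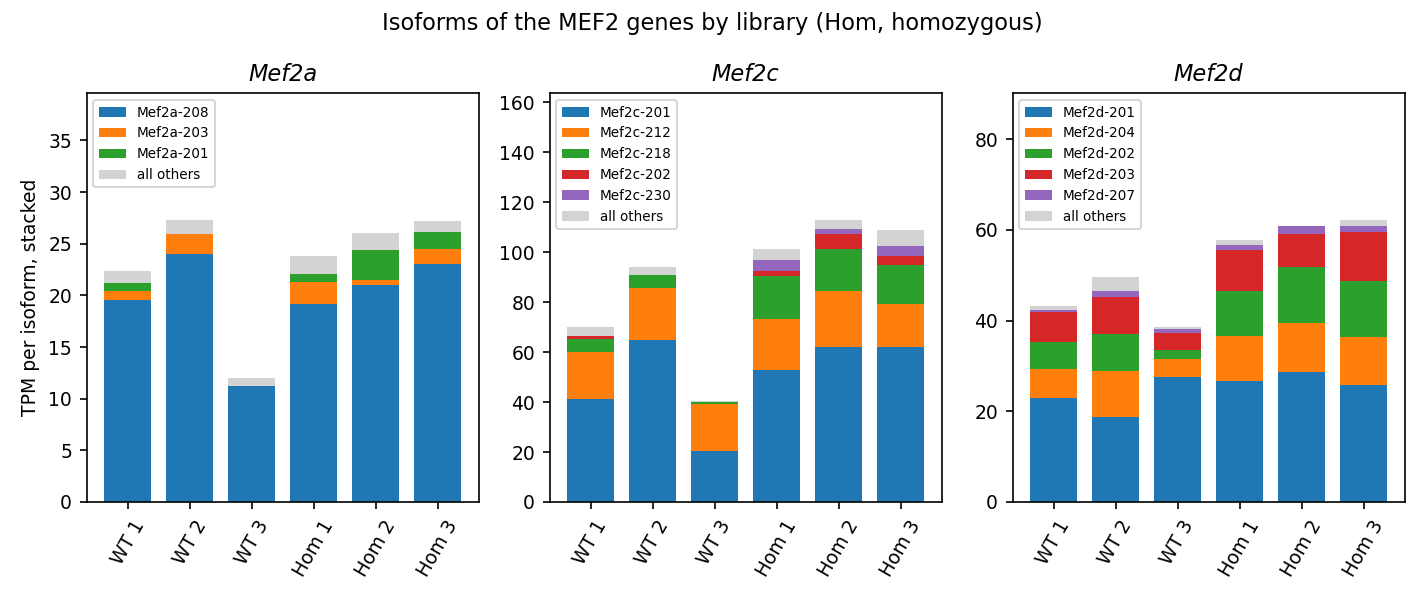
TPM of each isoform with a mean of at least 1 TPM, stacked per library, with all other isoforms of the gene in grey (Hom, homozygous). Mef2c-212 has about the same height in all 6 libraries, while Mef2c-201 and Mef2c-218 are shorter in WT replicate 3 and Mef2c-218 is taller in all homozygous libraries.

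Shares of exon choice were compared within each gene, 8 in all, by exact permutation tests (two-sided, smallest possible p 0.1). The class I share of Mef2a was 13.2%, 13.9% and 11.9% in the homozygous and 7.60%, 7.63% and 0% in the WT libraries. For Mef2c it was 77.2%, 77.72% and 80.7% against 72.0%, 76.8% and 52.7%. Both genes had the homozygous libraries above (exact permutation p 0.1, adjusted 0.16 each). For Mef2d it was 18.0%, 20.8% and 20.7% against 14.7%, 18.1% and 5.63%, and the groups overlapped by a small margin (exact permutation p 0.2, adjusted 0.267). WT replicate 3 had the lowest class I share of all libraries in each of the 3 genes. Without it the differences were 5.39, 4.15 and 3.47 percentage points, against 7.93, 11.4 and 7.05 with it.

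The β share was lower in the homozygous libraries for Mef2a, at 85.2%, 84.7% and 85.9% against 90.3%, 91.0% and 98.6%. It was lower for Mef2c too, at 20.9%, 20.5% and 16.4% against 28.9%, 24.2% and 47.1%. Without WT replicate 3 the difference went from -14.1 to -7.29 percentage points for Mef2c and from -8.01 to -5.35 for Mef2a. In both genes the groups did not overlap (exact permutation p 0.1, adjusted 0.16 each), and in both β sits mainly on class II isoforms, so the α and β shares are not independent. For Mef2d, β was in 15.5% ± 2.97 against 14.4% ± 4.23, with overlap. The γ segment was in 61.8% ± 3.64 of Mef2c against 61.3% ± 9.88 (exact permutation p 1.0), a difference within the spread between libraries.

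The share carried by the leading isoform of each gene was the other comparison. Mef2a-208 made up 80.6%, 80.8% and 84.7% of Mef2a against 87.8%, 87.9% and 93.4%, without overlap (exact permutation p 0.1, adjusted over 3 genes 0.3). It also makes up most of the class II and β sums of Mef2a, so this share is not independent of the α and β shares. Mef2c-201 made up 54.6% ± 2.39 against 59.4% ± 9.23, and Mef2d-201 45.0% ± 2.92 against 54.0% ± 17.0, both with overlap. Single WT libraries set these differences. For Mef2d-201 it was -9.01 percentage points, but -0.25 without WT replicate 3 and -17.2 without WT replicate 2. For Mef2c-201 it was -4.80, but -0.084 without WT replicate 2 and -9.31 without WT replicate 3.

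**Figure D5:**
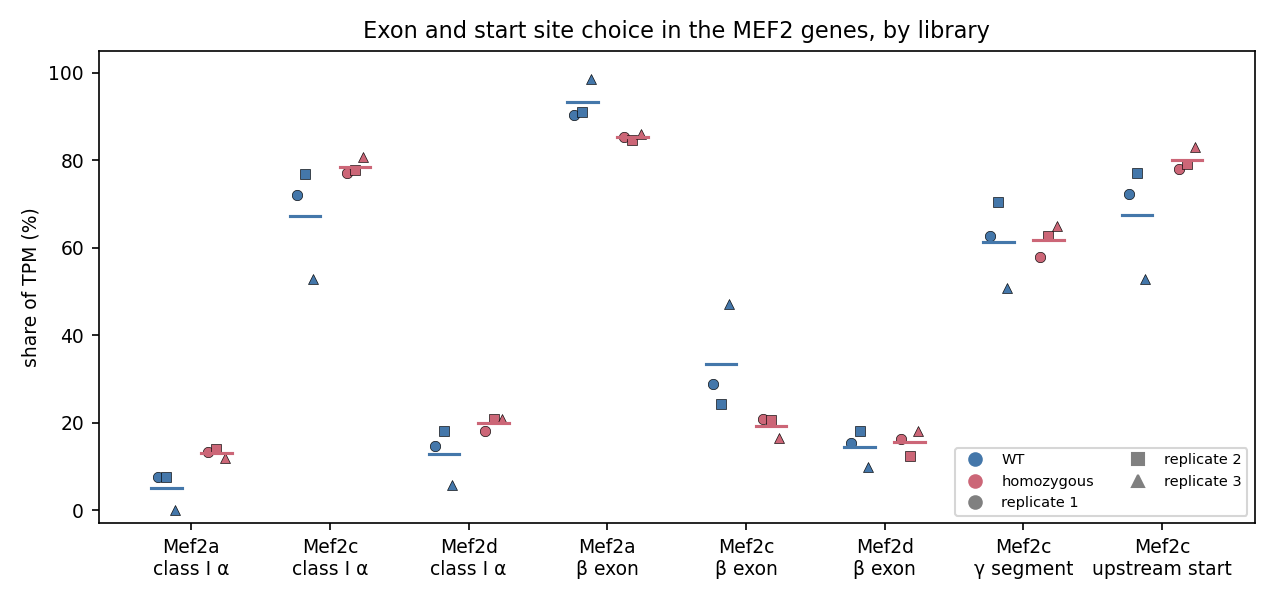
Share of TPM, in percent, of transcripts with the named exon, segment or start among those of the gene that could carry it, 1 point per library (blue, WT; red, homozygous; shape, replicate) with a line at each mean. The class I shares of Mef2a and Mef2c lie higher, and their β shares lower, in all homozygous libraries, with WT replicate 3 farthest away.

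The factors that work with the members were read from gene lists in the same limma fit, in which 0 genes of any list passed the adjusted threshold. Each count at an unadjusted p stands beside 23.7% of all genes higher and 0.55% lower, and a positive difference is that of the typical gene here. All 3 E-proteins, the dimer partners of the myogenic regulatory factors, had positive differences with a median of 0.33. Tcf12 (HEB) was 5.36, 7.39 and 7.04 TPM (homozygous 1 to 3) against 4.87, 4.55 and 2.52 TPM (WT 1 to 3), without overlap. Tcf3 and Tcf4 overlapped between groups. Of the inhibitors of helix-loop-helix factors, 11 of 17 were tested, and 2 were higher and 0 lower at an unadjusted p under 0.05. These were Hey1, a Notch target, at 2.73 ± 0.257 against 1.4497 ± 0.385 TPM, and Zeb2, at 5.12 ± 0.0711 against 3.43 ± 1.05 TPM (SD, n = 3 each). Id1, which sequesters E-proteins, was 16.0 ± 3.82 against 15.2 ± 1.44 TPM. The median of the inhibitors was 0.24, just under that of all genes.

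The regulators of MEF2 activity had a median of 0.45 over 12 tested, against 0.26 for all genes. All 12 had a positive difference, and 5 were higher at an unadjusted p under 0.05 (23.7% of all genes) and had the homozygous libraries above (34.7% of all genes). Camk2b and Camk2g, subunits of the calcium kinase that relieves MEF2 of histone deacetylases, were 68.7 ± 3.46 against 41.5 ± 7.97 TPM and 68.8 ± 10.5 against 44.4 ± 4.41 TPM. Hdac7 was 8.30 ± 1.29 against 5.12 ± 0.941 TPM, and Hdac4, a class IIa deacetylase that binds MEF2, was 10.4, 18.7 and 13.2 against 8.69, 7.69 and 3.51 TPM. The cofactor list had a median of 0.28 over 13 tested, with 5 higher at an unadjusted p under 0.05. Vgll2, a cofactor of TEAD and MEF2 proteins in muscle, was 50.6, 102 and 57.9 TPM against 49.3, 40.3 and 19.6 TPM. Ep300, an acetyltransferase for Myod1 and MEF2, was 7.90 ± 0.859 against 4.87 ± 1.66 TPM.

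Targets of the 2 families were spread. Of 26 listed, 24 were tested, with 11 higher and 0 lower at an unadjusted p under 0.05, against 23.7% and 0.55% of all genes. Their median was 0.45, against 0.26 for all genes, and 6 of the 24 had a negative difference. Xirp1 and Xirp2, actin-binding proteins of the intercalated and myotendinous junctions, were 34.2 ± 5.94 against 14.3 ± 3.14 TPM and 235 ± 17.8 against 136 ± 29.2 TPM. Lmod3, a leiomodin found at thin filament pointed ends, was 67.5 ± 6.62 against 49.0 ± 3.05 TPM. The most abundant targets overlapped between groups. Ckm was 20409 ± 3045 against 26135 ± 6225 TPM and Acta1, skeletal actin, 19456 ± 638 against 21544 ± 5796 TPM. Of the fibre type factors, 12 were tested, with a median of 0.31. Only 1, Sox6, was higher at an unadjusted p under 0.05, against 23.7% of all genes. The homozygous libraries were above in 3 of the 12, against 34.7% of all genes. Sox6, the repressor of slow genes, was at 26.4 ± 3.72 against 15.3 ± 3.64 TPM without overlap.

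Myog also marks denervated and regenerating fibres, and both lists were read. Of the denervation list, 8 of 12 were tested, and 1 (Hdac4) was higher at an unadjusted p under 0.05, against 23.7% of all genes. Their median was 0.50, against 0.26 for all genes, with 6 positive and 2 negative differences. Ncam1, which is on both lists, was 4.29 ± 2.48 against 2.05 ± 1.42 TPM, with overlap. Chrng, the fetal acetylcholine receptor subunit, stayed between 0 and 0.242 TPM, and Chrna1 was 4.23 ± 1.87 against 2.60 ± 0.570 TPM. The ligases Trim63 and Fbxo32 overlapped between groups. Of the developmental list, 8 of 11 were among the gene symbols measured. The myoblast fusion genes on it, Mymk and Mymx, had no values under these symbols, so they were not covered. Of the 11, 6 were tested and 0 reached an unadjusted p under 0.05, with a median of 0.17. Myh3, the embryonic myosin, was at 0.135 to 0.912 TPM, under 1 TPM throughout.

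Markers of other cells were read with the same fit. Schwann cell genes (3 of 5 tested, all 3 higher at an unadjusted p under 0.05) summed to 14.7 to 70.8 TPM in the homozygous and 7.84 to 12.3 TPM in the WT libraries. Slow-fibre genes had a median of 2.25, with 1 of 11 at an unadjusted p under 0.05. Fast-fibre genes had a median of -0.39, with 2 of 12 higher at an unadjusted p under 0.05 (Myh1 and Myh2). Smooth muscle and pericyte genes summed to 71.1 to 78.7 against 49.1 to 66.3 TPM, and endothelial genes to 34.0 to 40.2 against 27.3 to 39.1 TPM. Fibroblast genes (117 to 265 TPM in WT), adipocyte genes (5.36 to 23.3 TPM in the homozygous) and blood genes overlapped between groups. Immune genes summed to 4.23 to 6.48 TPM in the homozygous and 2.14 to 4.57 TPM in the WT libraries. Only the macrophage marker Cd68 of 5 was tested, at 3.95 ± 0.709 against 1.98 ± 0.923 TPM without overlap (limma, unadjusted p 0.0151, adjusted p 0.168). Mef2c is also expressed in endothelium and other cells, and the part of these cell types in the members' differences was not tested.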

How the data were processed

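Poly-A stranded RNA-seq of quadriceps muscle was deposited by the authors as 1 table of TPM per transcript for 6 libraries, 3 homozygous and 3 WT. The submitters' processing notes name mm10, FastQC, Trimmomatic, HISAT2 and kallisto, without versions. Neither labels nor headers state the annotation release or a filter. TPM was summed over the transcript rows of each gene symbol. Transcript structures and sequences came from GENCODE M21 (GRCm38), to which 99593 of 105129 transcripts matched with their version, and promoters from RefSeq (GRCm38.p6).

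Genes and isoforms with at least 1 TPM in 3 or more libraries were tested as log2(TPM + 1) with limma 3.58.1 (R 4.3.3; trend and robust options) and Benjamini-Hochberg adjustment at 0.05. Such fold changes understate those of low genes. Shares and ratios were compared with exact two-sided permutation tests (scipy 1.17.1). TPM carries no counts, so fragments were estimated from the steps between low values, which put 72.6% to 76.4% of 531 to 575 low values per library on whole fragments (tolerance 0.03; chance would put 6.0% there). On simulated data with 200 genes changed among 11099 (homozygous against WT), limma recovered 0% at a log2 change of 0.5, 45% at 1 and 89.5% at 2. The simulation used independent noise for each gene and changes of random sign. It held neither the shift shared by most genes nor an outlying library, so its rates need not hold for these data. The named genes were the 9 members, their isoforms with a mean of at least 1 TPM, up to 3 genes of each list by smallest p and 2 by highest mean TPM, and the 3 genes most correlated with each member. Mef2c-219, Calcr, Chrng, Myh3 and Nr3c1 fall outside that rule and were named after their values were seen. Members and gene lists were chosen with earlier results of these data known, and the shares of exon choice and the ratios were added after seeing the data. Alternatives were quantile normalization, median centring, no filter, a pseudocount of 0.1, array weights, removal of a length trend, a replicate block and leaving out each library.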

Additional observations from a re-analysis of the deposited data

How the results depend on the processing

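Over the alternatives tried, limma called 0 genes except with array weights (810, with 1 member gene, Mef2d) and without WT replicate 1 (2) or WT replicate 2 (1), so that leaving out single libraries gave 0 to 2. The 9 isoforms called became 3 with quantile normalization, 5 with median centring, 0 without a filter, 4 with a pseudocount of 0.1 and 14 with array weights. Leaving out single libraries gave 0 to 36 isoforms, the highest when WT replicate 1 was dropped, and 0 when either homozygous replicate 1 or 2, or WT replicate 3, was dropped. With a replicate block limma called 0 isoforms, 0 genes and 0 members. The deviations of same-numbered libraries from their group means had correlations of -0.071, 0.061 and -0.013, within the -0.139 to 0.131 of the other pairs. Deviations from a mean of 3 libraries sum to 0, so this check cannot settle whether the numbers pair the libraries. For Myod1 the replicate block lowered the SE from 0.48 to 0.24. No member isoform was called in any of these settings, and the cause of these shifts was not tested.

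Signs turned for values near 0. With median centring the log2 fold change was -0.13 for Pax7, -0.12 for Six4, -0.028 for Mef2d-201, -0.029 for Mef2d-207, -0.016 for Mef2a-208 and -0.23 for Mef2c-212. With quantile normalization it was -0.12 for Six4, -0.049 for Mef2d-207 and -0.19 for Mef2c-212. With the length trend removed, over 10042 genes, it was -0.070 for Pax7 and -0.21 for Six4. Leaving out single libraries gave -0.18 to 0.063 for Myf5, -0.023 to 0.32 for Six4, -0.030 to 0.76 for Mef2a-203, -0.044 to 0.47 for Mef2a-208 and -0.047 to 0.14 for Mef2c-212. The Mef2c γ share differed by -4.74 to 5.06 points, the Mef2d β share by -1.18 to 2.97 points, and the log2 ratio of Mef2d to Mef2a by -0.082 to 0.32. Mef2c (0.35 to 1.002), Mef2d (0.12 to 0.55), Myod1 and Mef2a kept positive values, and Myog and Myf6 negative ones, in all 13 alternatives. The estimated 11.0 to 79.0 fragments per library limit Pax7, Myf5 and Myog.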

Other observations

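The genes whose median-centred levels followed each member most closely over the 6 libraries were named by Pearson's r, as a description, since the libraries share their scaling and WT replicate 3. For Mef2c the closest was Lifr, the receptor subunit for leukemia inhibitory factor (r = 0.997), and for Mef2d the nucleoporin Nup98 (r = 0.984). For Myod1 it was Ttll1 (r = 0.978), for Myog Pphln1 (r = 0.991) and for Myf6 the zinc transporter Slc39a1 (r = 0.998). Genes at r of 0.9 or more numbered 373 for Mef2c, 395 for Mef2a and 246 for Myf6, but 43 for Myod1 and 52 for Mef2d.

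Actc1, the cardiac actin gene of developing and regenerating muscle, was at 363 TPM in WT replicate 3, against 11.99 to 18.9 TPM in the other 5 libraries.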
